A study of Homo sapiens with 4 samples.

Results

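NF-kB is a family of transcription factors built as dimers of 5 related subunits, RELA, RELB, REL, NFKB1 and NFKB2. The genes described are these 5 subunits and 5 genes that NF-kB is known to induce and whose products feed back on it (NFKBIA, NFKBIE, NFKBIZ, TNFAIP3 and BIRC3). They were taken by name, as 10 rows of the 40205 gene symbols in the deposited count table, and all 10 passed the filter on low counts. The data were RNA-seq read counts of A549, a human lung adenocarcinoma cell line. In 2 libraries, Knockdown-670 and Knockdown-732, the cells had received small interfering RNA (siRNA) to the long non-coding RNA SBF2-AS1, and in 2 others, controls 1 and 2, negative control siRNA. All were collected 24 h after transfection with the same lipid reagent; the labels give no other treatment, no genotype, and no meaning for the numbers in the names of the knockdown libraries.

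At rest NF-kB dimers are held in the cytoplasm by IkB proteins such as IkB alpha, the product of NFKBIA. Receptors for cytokines or foreign RNA switch on the IkB kinase, IkB is degraded, the dimers enter the nucleus, and among the first genes they induce are IkB genes and TNFAIP3, which end the response. In airway epithelium the pathway is known for chemokines, adhesion molecules and acute-phase genes. RELA paired with the NFKB1 product p50 serves this fast arm, and RELB paired with the NFKB2 product p52 serves a slower one.

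Sequences before RefSeq starts are shown for 6 of the 7 genes that held kappaB letters there, and those of NFKB2 are not printed. Whether these letters bear on the RNA levels was not tested. BIRC3, TNFAIP3 and NFKBIZ rose, NFKB1 fell, and NFKBIA and REL were not called as changed. Windows of 250 bases before to 50 after each RefSeq start (GRCh38.p14, not the GRCh37 build named for the counts) were searched on both strands for the kappaB consensus decamer and for a second form, GGGNNTTTCC, whose every match in these genes' windows was also a match of the consensus. All 10 genes had an entry, 13 windows in all since some have several starts. The consensus was in 9 of these 13 windows, from 7 genes, and in 7.73% of the 35116 windows in the table; the second form was in 8 of 13 and in 1.91%. A match is a description of letters and not a binding site. Capitals mark the matches, and each line reads 5′ to 3′ along the gene.
BIRC3: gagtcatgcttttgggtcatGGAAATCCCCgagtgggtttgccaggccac
TNFAIP3: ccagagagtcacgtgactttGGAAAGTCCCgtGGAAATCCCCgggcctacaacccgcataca
NFKBIZ: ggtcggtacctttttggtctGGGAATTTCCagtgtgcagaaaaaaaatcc
NFKB1: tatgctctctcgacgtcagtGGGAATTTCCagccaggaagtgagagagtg
NFKBIA: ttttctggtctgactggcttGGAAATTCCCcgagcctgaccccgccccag
REL: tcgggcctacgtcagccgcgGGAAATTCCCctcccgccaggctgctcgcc

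The BIRC3 stretch lies at chr11:102317265-102317314 on the + strand, 219 to 170 bases before the start, and that of TNFAIP3 at chr6:137867172-137867233 (+), 87 to 26 bases before it. The NFKBIZ stretch is at chr3:101827747-101827796 (+), 243 to 194 bases before the start, that of NFKB1 at chr4:102501290-102501339 (+), 69 to 20 before it, that of NFKBIA at chr14:35404801-35404850 (-), 101 to 52 before it, and that of REL at chr2:60881508-60881557 (+), 66 to 17 before it. NFKBIZ and NFKB1 carry the identical decamer GGGAATTTCC along the gene, and NFKBIA and REL carry it on the opposite strand. This decamer was taken from the NFKBIZ window and then counted, so its presence there was fixed beforehand. Among all windows the decamer was found in 51 (0.145%). NFKB2 also had matches, and RELA, RELB and NFKBIE had none in these windows. Starts here are those of RefSeq. The GENCODE bounds given below begin at 60881521 for REL and 137867188 for TNFAIP3, so their matches lie inside those bounds.

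Library totals were 12149767 and 12894529 counts in Knockdown-670 and Knockdown-732 and 12701132 and 12938143 in controls 1 and 2. SBF2-AS1 checked the labels: it had 1.27 and 1.42 CPM (read counts relative to the library total, scaled by TMM) in the knockdown libraries, against 4.41 and 5.97 CPM in the controls (log2 fold change -1.94, edgeR adjusted p = 3.19e-05, standard error 0.30). All 5 epithelial markers looked up were above 1 CPM on average, with a summed level of 2647 and 2493 CPM in the knockdown and 3847 and 3944 CPM in the controls. KRT8, KRT18 and EPCAM were lower in both knockdown libraries than in both controls, KRT19 was higher (130.2 and 138 CPM against 67.6 and 61.6 CPM), and CDH1 had 120.3 and 124 CPM against 103 and 122 CPM. Of the 7 immune markers, PTPRC, CD3E, MS4A1 and LYZ had at most 2 counts in any library, and CD14 (102 and 122 counts in the knockdown, 156 and 131 in the controls) and ITGAM (72 and 66 counts against 76 and 62) were detected in every library. The summed level of these markers was 196 and 175 CPM in the knockdown and 74.5 and 72.5 CPM in the controls, and nearly all of the difference was CD68, a lysosomal protein, with 181 and 160 CPM against 56.6 and 57.8 CPM. The 5 fibroblast markers summed to 13.6 and 10.4 CPM in the knockdown and 9.97 and 9.60 CPM in the controls, and the 5 endothelial ones to 1.36 and 2.36 CPM against 3.02 and 3.17 CPM. The part of these shifts in the results was not tested. Counts are relative to all RNA in a library, so fewer cells expressing a gene and less of its RNA per cell cannot be told apart.

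In the knockdown libraries RELA, NFKBIZ, TNFAIP3 and BIRC3 rose, by 1.36-fold to 1.83-fold, and NFKB1 fell to 0.83-fold of its control level. The other 5, RELB, REL, NFKB2, NFKBIA and NFKBIE, did not pass edgeR's quasi-likelihood test at a Benjamini-Hochberg adjusted p of 0.05 over the 16120 genes tested. So 5 of the 10 were called, while 46.3% of all genes tested were called, 23.5% higher and 22.8% lower. The share called among these genes is therefore near the background, and their median log2 fold change was 0.05, against -0.0024 over all genes. Groups did not overlap for 7 of the 10 genes, 5 higher and 2 lower, against 72.6% of all genes tested. With library size only in place of TMM 4 were higher and 2 lower, beside 3243 higher and 4265 lower of all 16120 genes. After correcting for GC content and transcript length the split was 4 and 3, beside 3891 and 3075 of all genes, where the TMM-scaled fit had 3785 and 3678; the 5 called genes were among those called under both.

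**Figure D1:**
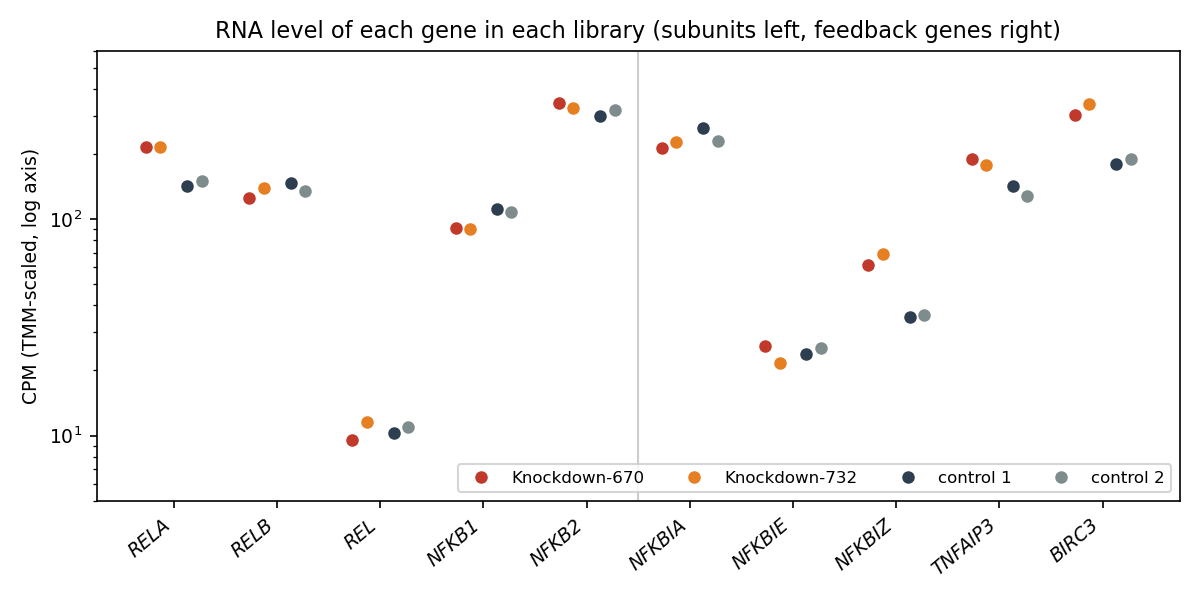
Level of each gene in each library as TMM-scaled CPM on a log axis, with the 2 knockdown libraries left of the 2 controls in each column and subunits left of the vertical line. Points of RELA, NFKBIZ, TNFAIP3 and BIRC3 lie higher in both knockdown libraries than in both controls, while those of RELB, REL and NFKBIE interleave.

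RELA encodes p65, the subunit that carries the main activation domain of the fast arm (GRCh38 chromosome 11, 65653596 to 65663094, - strand). It had 216 and 216 CPM in Knockdown-670 and Knockdown-732, against 143 and 150 CPM in the controls. The knockdown libraries were nearly identical and both lay above both controls. Means were 216 ± 0.034 CPM in the knockdown and 146 ± 5.00 CPM in the controls (SD, n = 2 each). On the log2 scale the change was 0.56 (edgeR adjusted p = 2.16e-06, with a standard error of 0.07). With the GC and length correction the value was 0.41 and still passed.

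NFKB1 encodes p105, which is processed to p50, the usual partner of p65 (chromosome 4, 102501329 to 102617302, + strand). Its level was 91.1 and 89.9 CPM in the knockdown libraries and 111 and 107 CPM in the controls, without overlap. It was the only gene of the 10 that was called lower, at -0.27 on the log2 scale (edgeR adjusted p = 0.00501, with a standard error of 0.07). RELA and NFKB1 thus moved in opposite directions. In size the change of NFKB1 was below the median absolute log2 fold change over all genes tested, 0.35. Among all genes called higher the median log2 fold change was 0.62, above RELA and TNFAIP3 and below NFKBIZ and BIRC3. Tested against a change of at least 1.2-fold, NFKB1 was not called (edgeR adjusted p = 0.414), whereas the 4 genes that rose were, TNFAIP3 with the highest adjusted p, 0.0156.

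The subunits of the slower arm did not pass. NFKB2, the p100 precursor of p52 (chromosome 10, 102394110 to 102402529, + strand), had 343 and 327 CPM in the knockdown libraries and 300.0 and 319 CPM in the controls. The knockdown values were above the controls, but the interval of the difference included 0 (log2 fold change 0.11, 95% interval -0.03 to 0.26, edgeR adjusted p = 0.178). RELB, whose protein pairs mostly with p100 and p52 (chromosome 19, 45001430 to 45038198, + strand), had 126 and 139 CPM against 147 and 135 CPM in the controls, with overlap (log2 fold change -0.09, 95% interval -0.25 to 0.07, edgeR adjusted p = 0.362). Both transcripts are rich in G and C (62.4% for NFKB2 and 65.4% for RELB), and with the GC and length correction both were called lower: NFKB2 at -0.15 (edgeR adjusted p = 0.0498), with its sign turned, and RELB at -0.31 (0.00109). Over their 12 alternatives each, the adjusted p ran from 0.0498 to 0.561 for NFKB2 and from 0.00109 to 0.881 for RELB.

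REL encodes c-Rel, a subunit best known from lymphocytes (chromosome 2, 60881521 to 60931610, + strand). It was the scarcest of the 10, with 112 and 147 counts in the knockdown libraries and 133 and 145 in the controls, or 9.51 and 11.6 CPM against 10.3 and 10.96 CPM. The knockdown values lay on both sides of the controls. The 95% interval of the log2 fold change, -0.35 to 0.33, included 0 (edgeR adjusted p = 0.974). At that depth a change in either direction within this interval remains possible. GENCODE annotates on the same strand a non-coding transcript that shares 5702 exon bases with REL, so some of these reads may be of that transcript.

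Per kilobase of transcript the subunits can be set side by side. In the knockdown libraries the order of the mean level was NFKB2 with 98.1 CPM per kb, RELA with 67.9, RELB with 57.7, NFKB1 with 22.2 and REL with 0.937. In the controls it was NFKB2 with 90.5 CPM per kb, RELB with 61.4, RELA with 46.0, NFKB1 with 26.7 and REL with 0.944. RELA therefore stood above RELB in both knockdown libraries and below it in both controls. As a share of the 5 subunits' summed level per kb, RELA made up 27.6 and 27.5% in the knockdown libraries and 19.96 and 20.8% in the controls. The share of NFKB1 was 9.06 and 8.90% in the knockdown and 12.07 and 11.6% in the controls, and that of RELB 22.3 and 24.5% against 28.5 and 25.9%. NFKB2 kept the largest share in every library, 40.7 and 38.8% in the knockdown and 39.1 and 41.2% in the controls. Shares are parts of a fixed whole, so a rise of RELA alone lowers the others. The level of RELB itself overlapped between the groups. Lengths were those of the longest coding transcript in GENCODE (2294 bases for RELB to 11255 for REL), so levels between genes, their order and the shares depend on which isoforms A549 uses.

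**Figure D2:**
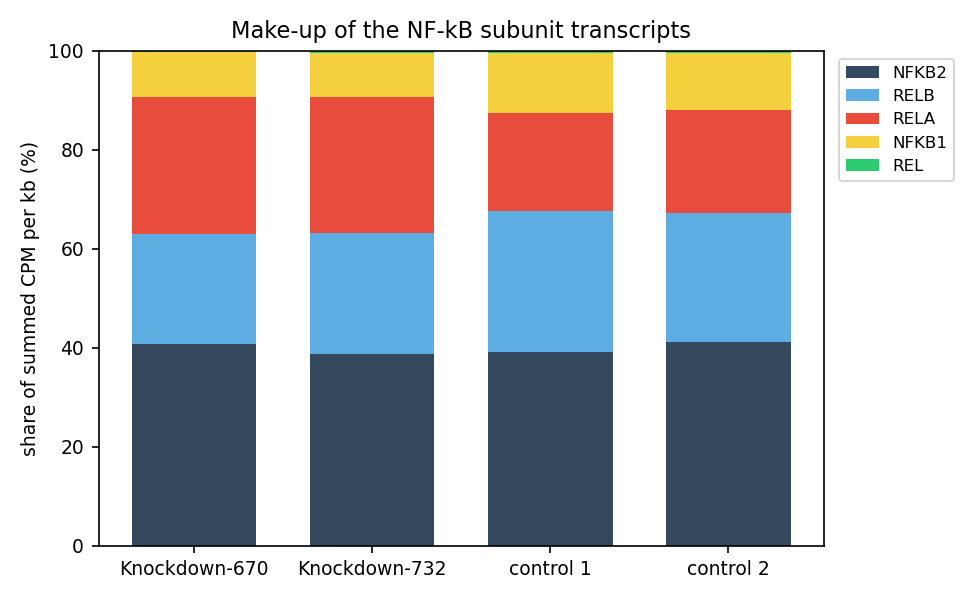
Share of each NF-kB subunit in the summed CPM per kb of the 5 subunits, as stacked bars for Knockdown-670, Knockdown-732, control 1 and control 2. The RELA section is 27.6 and 27.5% in the knockdown and 19.96 and 20.8% in the controls; REL, at most 0.430% in each, is barely visible at the top.

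Of the classical IkB genes neither passed. NFKBIA, whose IkB alpha masks p65-containing dimers and is resynthesised within a response (chromosome 14, 35401511 to 35404749, - strand), had 214 and 227 CPM in the knockdown libraries and 265 and 230 CPM in the controls. Both knockdown values lay below both controls, and the controls differed from each other by more than the knockdown libraries did. The log2 fold change was -0.17 (edgeR adjusted p = 0.0768, with a standard error of 0.08). It passed without control 2, at -0.27 (adjusted p = 0.00554), and with library size only, at -0.23 (0.0176), and stood at -0.07 (0.549) without control 1, so the call depends on the scaling and on which control is used. NFKBIE, whose IkB epsilon holds RELA and c-Rel dimers (chromosome 6, 44258166 to 44265788, - strand), had 25.9 and 21.7 CPM against 23.9 and 25.4 CPM in the controls. The groups overlapped (log2 fold change -0.05, 95% interval -0.31 to 0.21, edgeR adjusted p = 0.756).

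NFKBIZ had the largest log2 fold change of the 10 in the TMM-scaled fit, though not with the GC and length correction, where BIRC3 had it. It encodes IkB zeta, an atypical, nuclear IkB that acts with p50 as a coactivator at a subset of inflammatory genes (chromosome 3, 101827991 to 101861022, + strand). Its level was 61.3 and 69.0 CPM in the knockdown libraries and 35.3 and 36.05 CPM in the controls. Both knockdown values were well above both controls. Means were 65.2 ± 5.46 CPM in the knockdown and 35.7 ± 0.508 CPM in the controls (SD, n = 2 each), which was 0.87 on the log2 scale (edgeR adjusted p = 3.62e-07, standard error 0.09).

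TNFAIP3 encodes A20, a ubiquitin-editing enzyme that shuts off signalling upstream of the IkB kinase (chromosome 6, 137867188 to 137883312, + strand). It had 189 and 179 CPM in the knockdown libraries, against 143 and 128 CPM in the controls. The groups were apart, by 0.44 on the log2 scale (edgeR adjusted p = 8.86e-05, with a standard error of 0.07). An antisense transcript shares 95 exon bases with it in GENCODE, and 9 exon bases of RELA are shared with a transcript of the other strand; reads of such partners may not have been separated. BIRC3 encodes cIAP2, a ubiquitin ligase of TNF receptor complexes that, with TRAF2, also keeps the kinase of the slower arm low (chromosome 11, 102317450 to 102339403, + strand). It had 303 and 339 CPM in the knockdown libraries and 181 and 190 CPM in the controls. This was the widest gap in CPM among the 10, with means of 321 ± 25.3 CPM in the knockdown and 185 ± 6.86 CPM in the controls (SD, n = 2 each), which was 0.79 on the log2 scale (edgeR adjusted p = 6.39e-08, standard error 0.07). BIRC3 has the lowest GC content of the 10 transcripts, 34.8%, and with the GC and length correction its log2 fold change was 1.204.

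**Figure D3:**
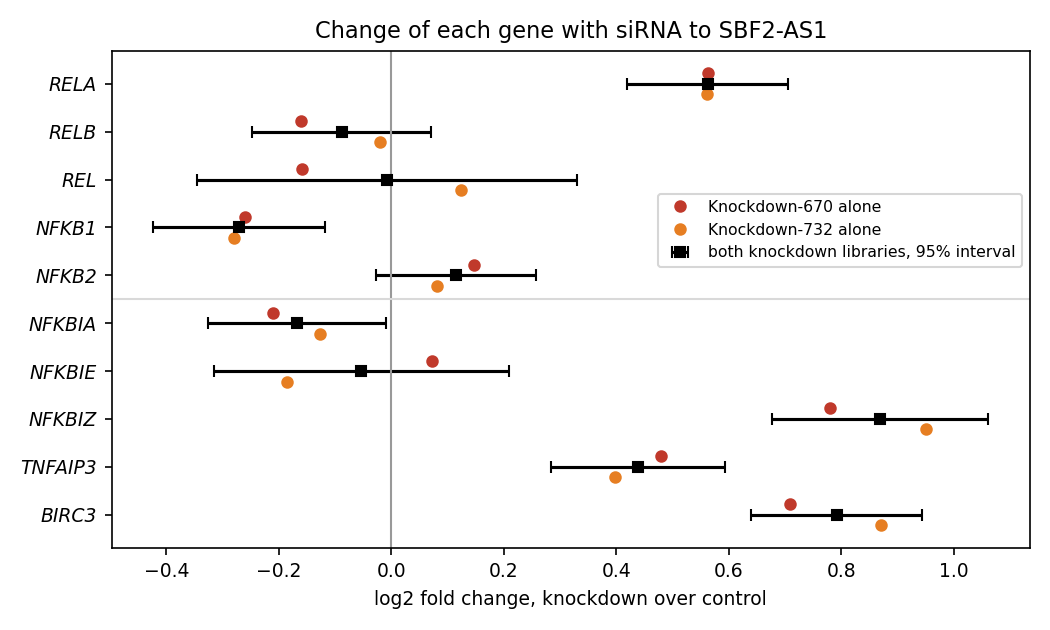
Log2 fold change of each gene, knockdown over control, from edgeR: black squares with 95% intervals use both knockdown libraries, and coloured points are Knockdown-670 or Knockdown-732 alone against both controls. Intervals of RELA, NFKBIZ, TNFAIP3 and BIRC3 lie above 0 and those of NFKB1 and NFKBIA below it, NFKBIA without passing the adjusted test.

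Each knockdown library was also compared alone with the controls, the residual spread then coming from the control pair only. The same 5 genes were called in each: RELA at a log2 fold change of 0.56 in Knockdown-670 and 0.56 in Knockdown-732, NFKBIZ at 0.78 and 0.95, TNFAIP3 at 0.48 and 0.40, BIRC3 at 0.71 and 0.87, and NFKB1 at -0.26 and -0.28. Of all genes, 42.0% were called in Knockdown-670 and 40.2% in Knockdown-732. Set against each other in edgeR, the knockdown libraries differed in 0 of the 10 genes (0 at an unadjusted p under 0.05), and in 0.403% of all genes. Their widest gaps were 0.28 for REL (SE 0.24) and 0.26 for NFKBIE (SE 0.19) on the log2 scale, so gaps of that size in these scarce genes were within the error. These comparisons share the same controls.

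Ratios of counts within a library do not depend on how libraries are scaled. There were 2.37 and 2.40 RELA reads per NFKB1 read in the knockdown libraries, against 1.29 and 1.39 in the controls. The RELA to NFKBIA ratio was 1.011 and 0.953 in the knockdown and 0.540 and 0.651 in the controls, and the RELA to RELB ratio 1.72 and 1.56 against 0.972 and 1.11. RELA thus gained reads relative to its partner, its inhibitor and RELB. The 95% counting intervals of knockdown and control libraries were apart in each. The controls' own intervals were also apart from each other for RELA to NFKBIA (0.510 to 0.571 and 0.615 to 0.689). They were apart for RELA to RELB too (0.912 to 1.036 and 1.044 to 1.187). Separate counting intervals therefore do not by themselves mark a difference between the groups. Within the feedback genes, BIRC3 had 1.42 and 1.49 reads per NFKBIA read in the knockdown and 0.683 and 0.827 in the controls. For NFKBIZ the ratio to NFKBIA was 0.287 and 0.304 in the knockdown and 0.134 and 0.157 in the controls, and for TNFAIP3 it was 0.885 and 0.788 against 0.540 and 0.558. By contrast the NFKBIE to NFKBIA ratio, 0.121 and 0.0956 in the knockdown and 0.0903 and 0.110 in the controls, overlapped, and so did the NFKB2 to RELB ratio, 2.72 and 2.36 against 2.04 and 2.37. With 2 libraries a group an exact two-sided permutation test of a single ratio cannot go below p = 0.333, so none was read as a test.

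**Figure D4:**
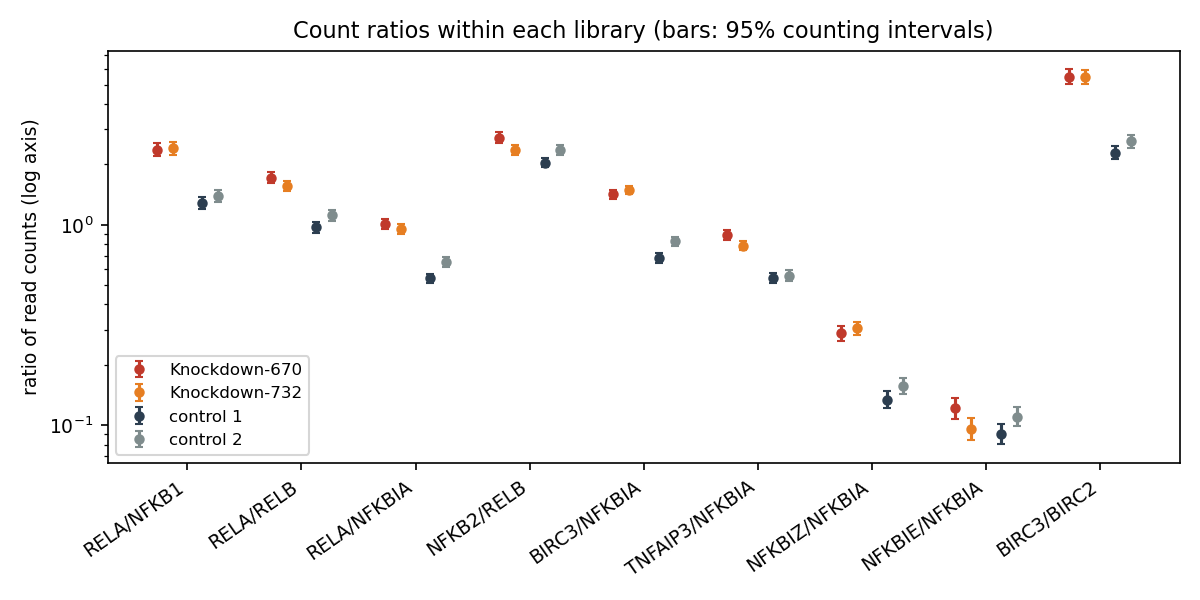
Ratios of read counts between pairs of genes within each library, on a log axis, with 95% counting intervals as bars; the 2 knockdown libraries stand left of the 2 controls in each column. Ratios of RELA to NFKB1, RELB and NFKBIA and of BIRC3, TNFAIP3 and NFKBIZ to NFKBIA are higher in both knockdown libraries, while NFKBIE to NFKBIA and NFKB2 to RELB overlap.

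Across all 10 genes the mean level per kb in the knockdown ran from NFKBIA at 141 CPM per kb down through NFKB2, RELA, BIRC3 at 61.8, RELB, TNFAIP3 at 38.8, NFKB1, NFKBIZ at 16.6 and NFKBIE at 9.21 to REL. In the controls it ran from NFKBIA at 159 CPM per kb through NFKB2, RELB, RELA, BIRC3 at 35.7, TNFAIP3 at 28.7, NFKB1, NFKBIE at 9.55 and NFKBIZ at 9.10 to REL. BIRC3 and RELB overlapped in the knockdown libraries, and TNFAIP3 and NFKB1 in the controls. NFKBIZ stood above NFKBIE in both knockdown libraries, whereas in the controls NFKBIE (9.55 ± 0.412 CPM per kb) and NFKBIZ (9.10 ± 0.129 CPM per kb; SD, n = 2 each) were close, without overlap.

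Of 16 other inhibitors of the pathway, 6 rose, 1 fell and 9 did not pass, with a median log2 fold change of 0.04. That is 43.75% called, near the 46.3% of all genes (23.5% higher and 22.8% lower), though most of the called inhibitors were higher. TNIP1, which binds A20 and polyubiquitin, had 456 and 433 CPM in the knockdown libraries against 271 and 274 CPM in the controls (log2 fold change 0.71, edgeR adjusted p = 9.96e-08). PDLIM2, a nuclear ubiquitin ligase for p65, was at 0.87, TNIP2 at 0.61 and the RNase ZC3H12A at 0.36 on the log2 scale. CYLD, a deubiquitinase that restrains the IkB kinase, was the one that fell, with 33.5 and 34.98 CPM in the knockdown and 53.2 and 54.0 CPM in the controls (log2 fold change -0.65, edgeR adjusted p = 1.19e-05). The remaining IkB genes, named after their values were seen, were NFKBIB (log2 fold change -0.13), NFKBID (-0.16) and BCL3 (-0.06), and none of them passed. With library size only 6 rose and 4 fell in this list, and with the GC and length correction 6 and 3.

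Among 37 kinases, adaptors and ubiquitin ligases that feed the IkB kinase, 14 rose, 9 fell and 14 did not pass (median log2 fold change 0.11; 15 and 6 with the GC and length correction). The share called was 62.2%, beside 46.3% of all genes (23.5% higher and 22.8% lower). This list was drawn up with earlier results of these data known. RBCK1, part of the linear ubiquitin ligase that activates the IkB kinase, had 703 and 650 CPM in the knockdown libraries and 253 and 236 CPM in the controls (log2 fold change 1.47, edgeR adjusted p = 1.45e-11). Its catalytic partner RNF31 rose by 0.95 on the log2 scale, and SHARPIN, named after its value was seen, by 0.49. TRAF1, an adaptor, rose by 1.06 and MAVS, the mitochondrial adaptor of RNA sensors, by 0.78. The genes that fell included FBXW11 (log2 fold change -0.40), an F-box protein of IkB degradation, BIRC2 (-0.37), MALT1 (-0.45) and TAB3 (-0.40). BIRC2, the close relative of BIRC3, had 55.3 and 62.0 CPM in the knockdown and 78.9 and 72.7 CPM in the controls, so the BIRC3 to BIRC2 read ratio was 5.48 and 5.47 in the knockdown and 2.29 and 2.62 in the controls. Of the IkB kinase itself, named after its values were seen, the subunit gene CHUK fell (log2 fold change -0.47, edgeR adjusted p = 0.00342), and IKBKB (-0.09) and IKBKG (0.02) did not pass.

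Of 25 receptors 24 were tested, of which 10 rose, 1 fell and 13 did not pass (median log2 fold change 0.26). That is 45.8% called, near the 46.3% of all genes (23.5% higher and 22.8% lower), though most of the called receptors were higher. The RNA sensors IFIH1 and DDX58 led them, at 53.0 and 53.4 CPM in the knockdown against 7.04 and 6.80 CPM in the controls for IFIH1 (log2 fold change 2.94) and at 2.66 for DDX58. TNFRSF1B rose by 1.44 and TNFRSF10B by 0.54, and TNFRSF21 was at -0.45. The main TNF receptor TNFRSF1A, named after its value was seen, was at 0.05 (edgeR adjusted p = 0.579).

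Of 50 inflammatory NF-kB target genes, 30 rose, 13 fell and 7 did not pass, with a median log2 fold change of 0.57; with the GC and length correction 29 rose and 6 fell. Beside these counts, 23.5% of all genes were called higher and 22.8% lower. The target list, too, was drawn up with earlier results of these data known. CCL5, a chemokine for T cells, had 109 and 87.9 CPM in the knockdown libraries and 10.1 and 10.96 CPM in the controls (log2 fold change 3.23, edgeR adjusted p = 2.34e-12). The complement factor CFB rose by 1.52, the peptide transporter TAP1 by 1.10 and the adhesion molecule ICAM1 by 1.09 on the log2 scale; interferons are known to induce several of these too. In the other direction went TNFAIP8 (log2 fold change -1.20), a regulator of cell death, and some of the listed neutrophil chemokines. CXCL5 had 525 and 543 CPM in the knockdown and 817 and 845 CPM in the controls (-0.64, edgeR adjusted p = 3.48e-07). CXCL3 was at -0.46 and CXCL8, listed under its older symbol IL8, at -0.39. The list also holds CXCL1 and CXCL2, which the naming rule did not pick. Of the targets 86% were called, beside 46.3% of all genes, and more of the called ones were higher than lower. With the GC and length correction, 3891 of all 16120 genes were called higher and 3075 lower.

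**Figure D5:**
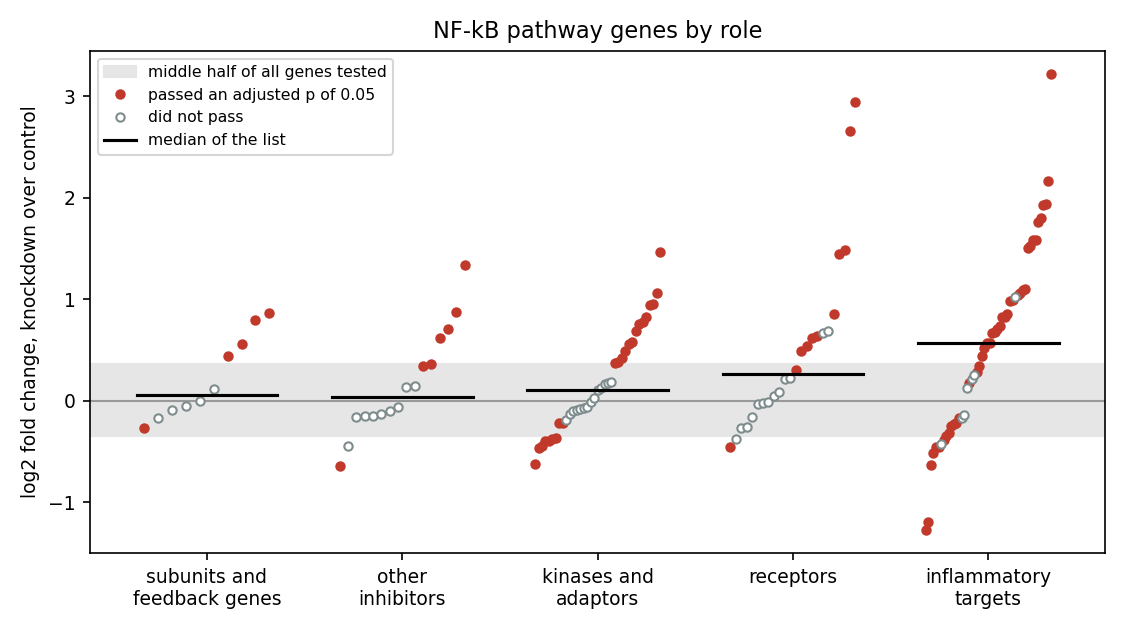
Log2 fold change, knockdown over control, of each tested gene of the NF-kB pathway by role; filled points passed an adjusted p of 0.05, open ones did not, black lines are list medians, and the grey band runs from the lower to the upper quartile of all genes tested. The 10 subunits and feedback genes span -0.27 to 0.87, and the target genes span -1.28 to 3.23.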

How the data were processed

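The authors deposited raw counts per gene symbol for 4 libraries; per the labels' protocols RNA was extracted with Trizol and libraries run by Ion Proton. GRCh37 is the build in the submitters' processing notes; no source used here gives the aligner, the counting program, the annotation or whether strand was used. The counts were fitted over the whole table in R 4.3.3 by edgeR 4.0.16 (TMM after filterByExpr, robust glmQLFit, glmQLFTest, Benjamini-Hochberg over 16120 genes), with CPM scaled by TMM. SE is the log2 fold change over the root of F. The 3-group fit gave single-library values. The members, lists and naming rule (up to 4 called genes of smallest p per list and direction, with a mean of at least 5 CPM and groups apart) were chosen with earlier results of these data known. Lengths and GC came from GENCODE v29 (GRCh38), joined by symbol, for 91.1% of tested genes. Promoters were RefSeq's. Libraries of a group differed beyond counting noise (chi-square per gene 3.42 in the knockdown, 3.72 in the controls). Nothing says that replicates came from separate cultures, so the spread behind the p-values is that of these libraries and may be technical. Counting intervals cover counting error only. Scripts were tested on simulated data. A further immune marker gene was left out and is not reported here. Alternatives used other scalings, filters, left-out libraries, DESeq2 1.42.0, limma-voom (limma 3.58.1), a GC and length correction (splines with 5 degrees of freedom per library) and a test against 1.2-fold.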

Additional observations from a re-analysis of the deposited data

How the results depend on the processing

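RELA, NFKBIZ, TNFAIP3, BIRC3 and NFKB1 kept their direction and their call in all 12 alternatives that gave a log2 fold change, over ranges of 0.41 to 0.59, 0.77 to 0.95, 0.36 to 0.51, 0.70 to 1.204 and -0.33 to -0.25. The number of the 10 genes called lower was 1, but 2 with library size only, 3 with the GC and length correction, 0 against a 1.2-fold change (edgeR glmTreat; 0 at an unadjusted p under 0.05), and 1 to 2 with a library left out, the second being NFKBIA without control 2. Against 1.2-fold, 4680 of all genes were called, 2451 higher and 2229 lower, in place of 7463. Other inhibitors called lower numbered 4 with library size only, 2 with no filter, 3 with the GC and length correction and 1 to 2 with a library left out, in place of 1; targets called lower numbered 6 in place of 13 with that correction. Signs turned only in genes that had not passed: REL was at 0.0039 with upper-quartile scaling, 0.15 with the GC and length correction and -0.17 to 0.12 with a library left out, NFKBIE at -0.19 to 0.060 with a library left out, and NFKB2 at -0.15 with the correction. The cause was not tested. No paired analysis was possible because the library titles share no replicate numbers. Depth limits REL and NFKBIE most.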
